A study of Ovis aries with 62 samples.

Results

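*UBAP2*, *MAPRE3*, *NUP93*, *WBP2*, *RPRD2* and *HEG1* are 6 of 16011 genes measured in the rumen wall of 62 Australian (AUS) sheep, and were picked for their relation with CH4 yield. Their gene IDs are ENSOARG00000009390, ENSOARG00000019040, ENSOARG00000018689, ENSOARG00000009183, ENSOARG00000020805 and ENSOARG00000020233 in the same order. CH4 yield is the CH4 a sheep produced per day over its dry matter intake (DMI), in g/kg DMI, and the genes were chosen on that measure in these same animals. The slopes on CH4 yield, and those on its parts CH4 production and DMI, are therefore given below as a description, and nothing is read from their *p*. Tests were run on live weight, which did not enter the choice, and on a mean of muscle genes. The symbols of the 6 come from the study's tables, and all 6 are in its list for retention time, made with muscle genes in the model. The test block was also fitted. It entered the choice as a covariate of the CH4 yield relation, so its results are a description.

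Each sheep gave 1 RNA sequencing library from a full-thickness piece of ventral rumen wall, in which epithelium and muscle layers are mixed. The sheep were adult Merino ewes fed the same lucerne and oat chaff diet at the same multiple of maintenance requirement. There was no treatment or control group. They were tested in 4 periods, called blocks, of 16, 16, 14 and 16 animals, and the sample labels also gave live weight. Ewes of the flock shared sires, which the labels do not name, so some animals are related and no test below accounts for it.

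CH4 is made in the rumen by methanogenic archaea, mainly from hydrogen and carbon dioxide released as other microbes ferment the feed. The host takes part through how much it eats, how it absorbs the acids of fermentation across the epithelium, and how the contracting muscle of the rumen wall mixes and moves the digesta; feed that stays longer in the rumen is associated with more CH4 per unit of intake. The 6 genes belong to no single pathway. *UBAP2* encodes a ubiquitin-associated domain protein related to the stress granule protein UBAP2L. *MAPRE3* encodes EB3, which binds the growing ends of microtubules, *NUP93* a scaffold protein of the nuclear pore, and *WBP2* a WW domain binding coactivator that partners YAP and TAZ of the Hippo pathway. *RPRD2* encodes a protein that binds the C-terminal domain of RNA polymerase II, and *HEG1* a transmembrane receptor best known from the endothelium, where it binds KRIT1 of the cerebral cavernous malformation complex.

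Values are log2 CPM, the log2 of reads scaled to the normalized size of each library. The reads behind them were recovered as whole numbers and sum to 4208032 to 12130080 assigned reads per library (median 7923973). No gene length was at hand, so levels are compared between sheep for the same gene and not between genes. Over the 62 libraries *MAPRE3* rested on 20 to 150 reads (median 66.5) and *WBP2* on 25 to 182 (median 92), while the lowest counts of *UBAP2* and *NUP93* were 252 and 217 reads. Counting error made up 11.4% of the variance of *MAPRE3* between sheep, 8.9% of that of *WBP2*, and 2.65% to 6.24% of that of the other 4. *MAPRE3* is the least precisely measured of the 6, and it alone fell under 3 CPM in a library (lowest value 2.88 CPM). Smooth muscle markers were high throughout (*MYH11*, 13.5 ± 0.67 log2 CPM, SD, *n* = 62), as was the epithelial keratin *KRT78* (11.3 ± 1.12), as the tissue label says. No gene of the endothelium, immune or nerve marker lists could be matched to a gene ID, so those cells were not checked.

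Everything that uses CH4 yield or DMI leaves out sheep oz151 (block 3): on its labels it ate 0.0795 kg/d, far less than any other animal, which would put its CH4 yield at 301 g/kg DMI. The other 61 sheep had a CH4 yield of 20.6 ± 3.34 g/kg DMI (SD), from 16.2 to 35.7. The highest value belongs to sheep oz175 of block 4, with a DMI of 0.376 kg/d, and the next highest is 27.9 g/kg DMI. CH4 yield also moved with the test block: its mean over blocks 1 to 4 was 19.0, 19.8, 20.8 and 22.6 g/kg DMI.

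Against CH4 yield, *UBAP2*, *MAPRE3*, *WBP2*, *RPRD2* and *HEG1* had negative slopes and *NUP93* a positive one. For an increase of 1 SD in CH4 yield, the fitted difference in log2 CPM was -0.24 for *MAPRE3* (SE 0.06), -0.23 for *RPRD2* (SE 0.07), -0.22 for *WBP2* (SE 0.06), -0.21 for *HEG1* (SE 0.07), -0.12 for *UBAP2* (SE 0.03) and 0.12 for *NUP93* (SE 0.03). None of the 6 passed an adjusted *p* under 0.05 in limma, and none of all 16011 genes did (0%), the smallest adjusted *p* of any gene being 0.055. At an unadjusted *p* under 0.05, 1521 genes were below the threshold (9.5%) and all 6 among them, which the choice itself fixes. They are thus described here as genes chosen on CH4 yield, and these data at this number of sheep do not show any single gene to be related to it after adjustment.

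The choice had no numerical threshold. By limma, *UBAP2* ranked 9th, *MAPRE3* 11th and *NUP93* 12th of the 16011 genes on CH4 yield, and these were the first 3 of the 1224 genes with a symbol. *WBP2* ranked 32nd of all genes, *RPRD2* 106th and *HEG1* 110th. Genes with a symbol that ranked between *NUP93* and *WBP2* and were not chosen were *PARP9*, *NCOA6*, *UBP1*, *DHX58* and *DIAPH1*, at ranks 17, 18, 26, 27 and 31.

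*UBAP2* had a lowest value of 5.36, a median of 5.95 and a highest value of 6.60 log2 CPM over the 62 sheep. Its slope was -0.0363 log2 CPM per g/kg DMI (SE 0.00941), with *r* = -0.448 and rho = -0.378 over 61 sheep. All 5 sheep with the highest CH4 yield were below its median of all sheep, from 5.36 to 5.83, and 4 of the 5 with the lowest CH4 yield were above it, up to 6.60 in sheep oz171. The lowest value of the gene was that of sheep oz175, yet without this sheep the slope was -0.0356 (SE 0.0117), 97.8% of the slope with it.

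*MAPRE3* spread more widely, with a lowest value of 1.53, a median of 3.10 and a highest value of 4.01. Its slope was -0.0731 (SE 0.0192; *r* = -0.438, rho = -0.316). Of the 5 sheep with the highest CH4 yield, 4 were below the median, at 1.53, 1.83, 2.64 and 2.83, and sheep oz94 was above it at 3.38. Sheep oz175 again gave the lowest value, on 32 reads, and without it the slope was -0.0582 (SE 0.0237), which is 79.6% of the slope with it. It is the member whose slope shrank most without that sheep.

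*NUP93* ran from 5.24 through a median of 6.04 to 6.61 and moved the other way. Its slope was 0.0366 (SE 0.00963; *r* = 0.441, rho = 0.459). The 5 sheep with the lowest CH4 yield were all below the median, from 5.24 to 5.95, and the 5 with the highest were all above it, from 6.05 to 6.38. No other member had these 10 sheep split completely at its median. The values of *HEG1* in the 2 groups did not overlap either, at 4.70 to 5.57 in the 5 lowest and 3.98 to 4.63 in the 5 highest. Without sheep oz175 its slope was 0.0436 (SE 0.0119).

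*WBP2* ran from 2.24 through 3.58 to 4.53, with a slope of -0.0652 (SE 0.0185; *r* = -0.411, rho = -0.371). The 5 sheep with the highest CH4 yield lay below the median, from 2.24 to 3.49, while the 5 with the lowest lay on both sides of it, from 3.29 to 4.53. *RPRD2* ran from 3.59 through 4.96 to 6.36, with a slope of -0.0683 (SE 0.0214; *r* = -0.373, rho = -0.360). Of the 5 sheep with the highest CH4 yield, 4 were below its median, and 3 of the 5 with the lowest were above it. *HEG1* ran from 3.61 through 4.85 to 5.99, with a slope of -0.0639 (SE 0.0201; *r* = -0.372, rho = -0.399). Its values in the 5 sheep with the highest CH4 yield were 3.98 to 4.63, all below the median, and 4 of the 5 with the lowest CH4 yield were above it, at 4.91 to 5.57. Without sheep oz175 the slopes of these 3 genes were steeper, at -0.0804 (SE 0.0228), -0.0743 (SE 0.0267) and -0.0781 (SE 0.0249). In that fit of 60 sheep limma called 18 of all genes (0.112%) and none of the 6, and 14% of all genes had an unadjusted *p* under 0.05.

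**Figure D1:**
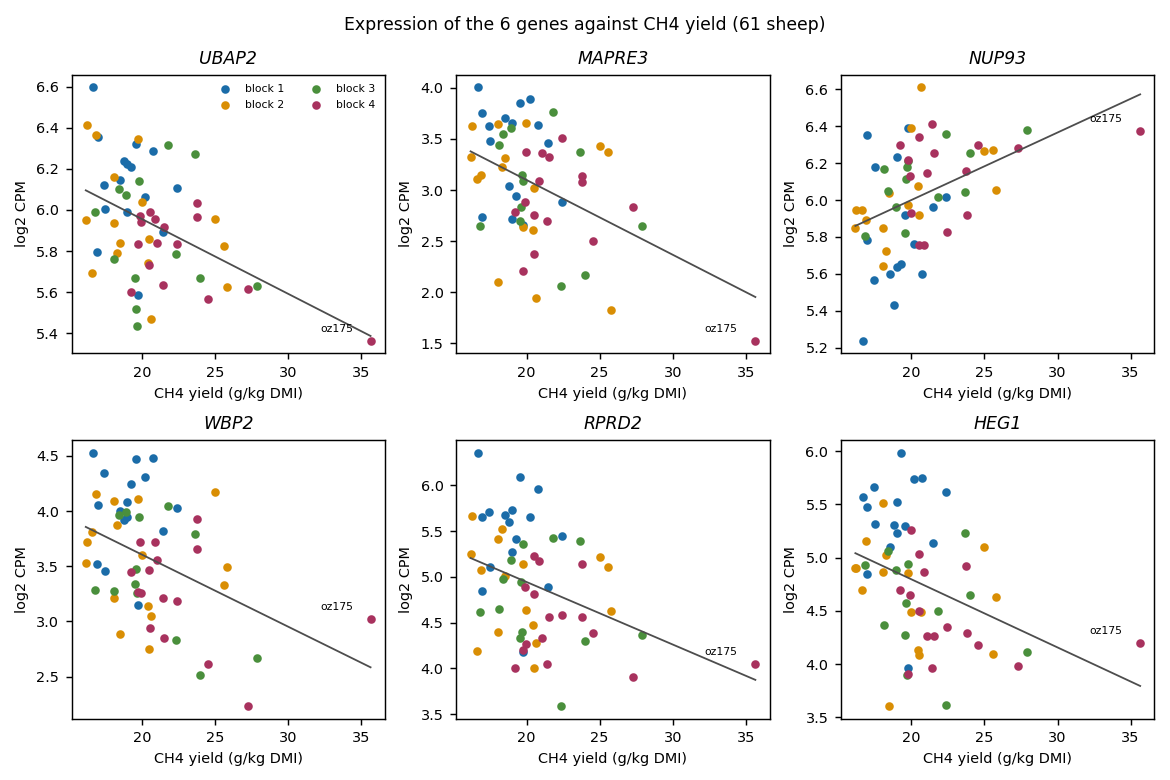
Log2 CPM of each gene (y axis) against CH4 yield in g/kg DMI (x axis) for 61 sheep, 1 point per sheep, colored by test block, with the fitted line over all 61. *NUP93* rises and the other 5 fall with CH4 yield, sheep oz175 stands alone at 35.7 g/kg DMI, and the sheep of block 1 lie between 16.7 and 22.4 g/kg DMI.

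The slopes depended on the test block to different degrees. With block held constant, *MAPRE3* kept 85.1% of its slope (-0.0622, SE 0.0209), *NUP93* kept 79.4% (0.0291, SE 0.0102) and *UBAP2* kept 75.1% (-0.0273, SE 0.00997). *WBP2* kept 60.4% (-0.0394, SE 0.0184), *HEG1* 53.6% (-0.0342, SE 0.0186) and *RPRD2* 48.9% (-0.0334, SE 0.0204). The last 2 slopes were within 2 SE of 0. Without the 16 sheep of block 1, the slopes were between 62.8% (*RPRD2*) and 85.3% (*MAPRE3*) of those over 61 sheep.

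Within single blocks the sign of *r* matched that over all sheep in 22 of 24 cases, 6 genes in 4 blocks. The exceptions were *WBP2* and *HEG1* in block 1, both at *r* = 0.05 (*n* = 16), where CH4 yield ranged from 16.7 to 22.4 g/kg DMI. The strongest relations inside a block were those of *NUP93* in block 3 (*r* = 0.630, *n* = 13) and of *UBAP2* in block 4 (*r* = -0.618, *n* = 16), the block of sheep oz175. The interaction of CH4 yield and block was also fitted. No gene of 16011 was called (0%), 463 had an unadjusted *p* under 0.05 (2.89%), and none of the 6 was among these. CH4 yield and block both entered the choice of the 6, so this is given as a description, and the 13 to 16 sheep of a block limit its precision.

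With DMI held constant, the 6 slopes were 82.4% (*WBP2*) to 113% (*UBAP2*) of those without it, and all kept their sign. With both block and DMI held constant they were -0.0353 for *UBAP2* (SE 0.0122), -0.0612 for *MAPRE3* (SE 0.0258), 0.0271 for *NUP93* (SE 0.0126), -0.0383 for *WBP2* (SE 0.0227), -0.0542 for *RPRD2* (SE 0.0248) and -0.0382 for *HEG1* (SE 0.0230). *RPRD2* had a steeper slope with block and DMI together than with block alone. DMI itself ran against CH4 yield (*r* = -0.645, *n* = 61), of which it is the divisor, and the members followed it in the opposite direction: *r* with DMI was 0.198 (*RPRD2*) to 0.330 (*WBP2*) for the 5 genes with negative slopes on CH4 yield and -0.347 for *NUP93*. Against CH4 production, the numerator, *r* was between -0.117 (*NUP93*) and 0.151 (*WBP2*) over 62 sheep. The labels give sheep oz151 and oz224 an identical CH4 production, and without oz151 the same 2 genes had the same *r* of -0.117 and 0.151 (*n* = 61).

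**Figure D2:**
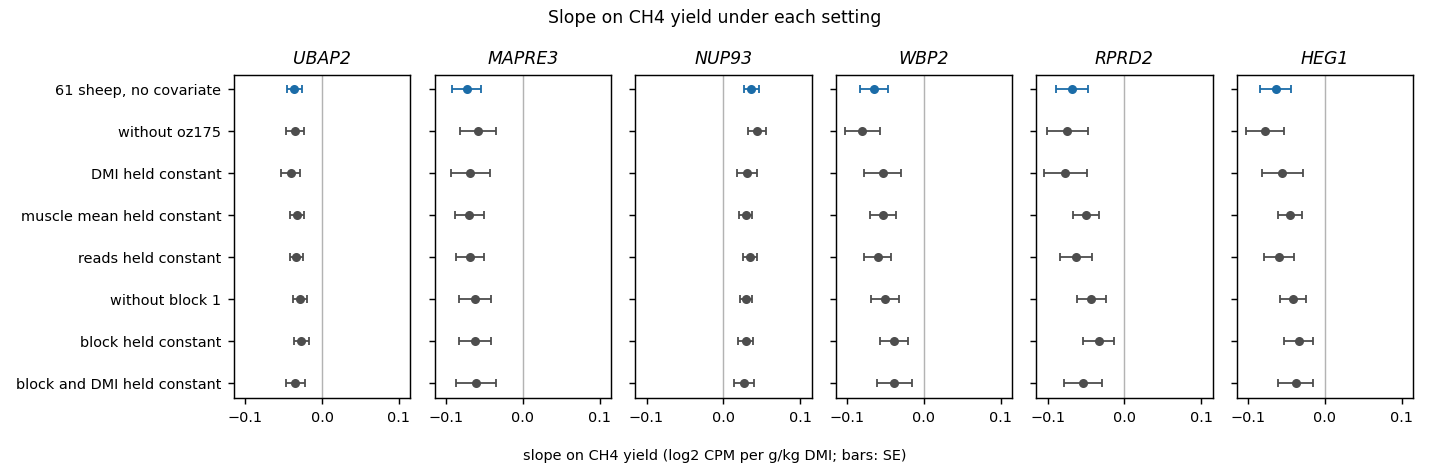
Slope of each gene on CH4 yield (x axis, log2 CPM per g/kg DMI; bars are 1 SE) under 8 settings (y axis), with the fit of 61 sheep and no covariate at the top. Every slope keeps its side of 0. With block alone held constant, *WBP2*, *RPRD2* and *HEG1* keep a smaller share of their slope than the other genes do.

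Mean levels by test block ran in the opposite order to mean CH4 yield for the 5 genes with negative slopes, and in the same order for *NUP93*. *HEG1* stood at 5.35 ± 0.47, 4.66 ± 0.49, 4.55 ± 0.46 and 4.46 ± 0.41 log2 CPM in blocks 1 to 4 (mean and SD over 16, 16, 14 and 16 sheep). *RPRD2* stood at 5.47 ± 0.53, 4.88 ± 0.51, 4.77 ± 0.54 and 4.51 ± 0.43 in blocks 1 to 4. *WBP2* stood at 4.02 ± 0.39, 3.56 ± 0.46, 3.43 ± 0.50 and 3.26 ± 0.45. Block 1 was the high block for all 3, and blocks 2 to 4 overlapped widely.

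*UBAP2* had smaller differences, at 6.12 ± 0.24, 5.94 ± 0.27, 5.87 ± 0.28 and 5.80 ± 0.19 in blocks 1 to 4. *MAPRE3* stood at 3.38 ± 0.47, 3.00 ± 0.60, 2.98 ± 0.53 and 2.84 ± 0.51. *NUP93* had the reverse order, at 5.83 ± 0.34, 6.03 ± 0.25, 6.11 ± 0.18 and 6.13 ± 0.22. The blocks overlapped for every gene. Of the 16 sheep of block 1, 15 were above the median of the other blocks for *HEG1* and *RPRD2*, 14 for *WBP2* and *UBAP2* and 10 for *MAPRE3*, and 12 were below it for *NUP93*. Sheep oz166 was the lowest of block 1 for all 5 genes other than *NUP93* (3.97 for *HEG1*, 4.18 for *RPRD2*) and the highest of block 1 for *NUP93* (6.39).

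**Figure D3:**
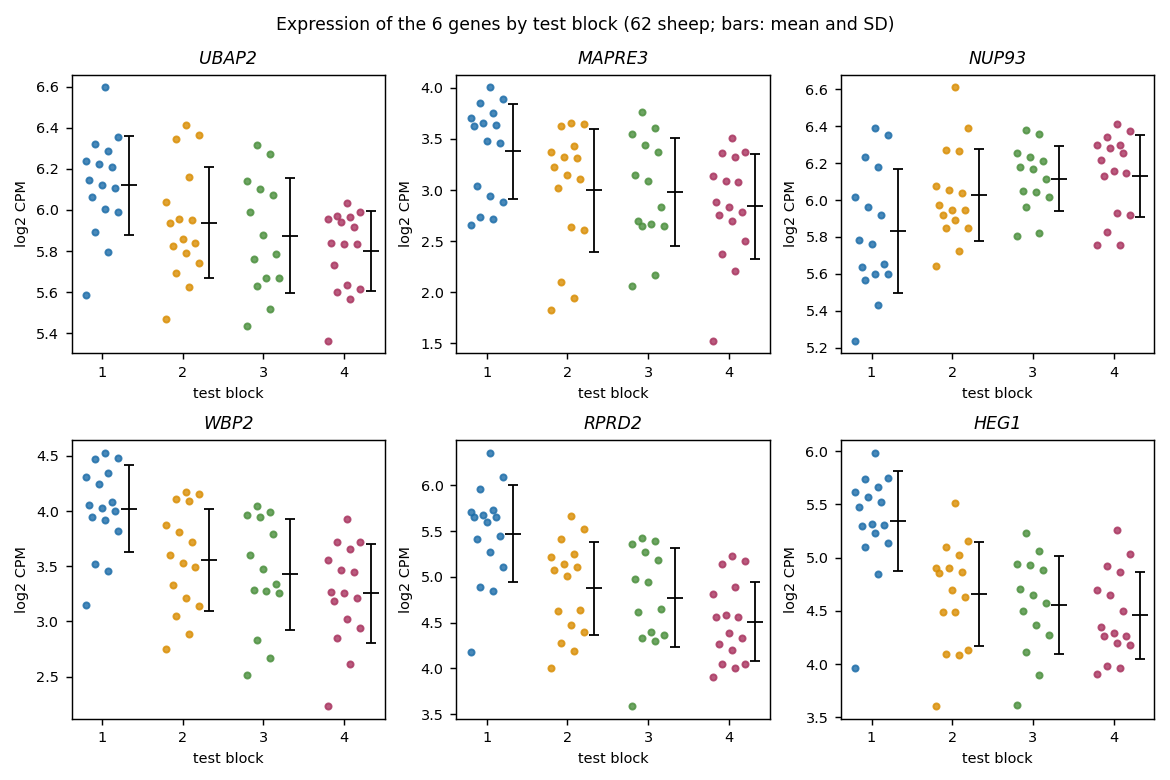
Log2 CPM of each gene (y axis) by test block (x axis) in 62 sheep, 1 point per sheep, with the mean and SD of each block as black bars. By the mean, block 1 is highest for 5 genes and lowest for *NUP93*, by most for *HEG1* and *RPRD2*, and the blocks overlap in every panel.

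Since block and CH4 yield move together, the block difference was tested with CH4 yield held constant (limma F test over 4 blocks, 61 sheep). Block was named in the choice of the genes as a covariate of the CH4 yield relation. The block test is therefore not independent of the choice, and its results for the 6 are given as a description. *HEG1* (F = 9.78, adjusted *p* = 0.000511), *RPRD2* (F = 7.99, adjusted *p* = 0.00189) and *WBP2* (F = 5.65, adjusted *p* = 0.0125) differed between blocks, which is 3 of 6 beside 23.5% of all genes. At equal CH4 yield, *HEG1* was lower than in block 1 by 0.66 log2 CPM in block 2 (SE 0.16), 0.74 in block 3 (SE 0.17) and 0.76 in block 4 (SE 0.17). *RPRD2* was lower by 0.57 (SE 0.17), 0.68 (SE 0.18) and 0.84 (SE 0.19), and *WBP2* by 0.43 (SE 0.15), 0.54 (SE 0.16) and 0.62 (SE 0.17). *UBAP2* (adjusted *p* = 0.173), *NUP93* (0.185) and *MAPRE3* (0.397) did not pass in the same limma test. When block 1 was set against blocks 2 to 4 together, *UBAP2* (0.19 higher in block 1, SE 0.07, adjusted *p* = 0.0318) and *NUP93* (0.19 lower, SE 0.07, adjusted *p* = 0.0322) passed as well, which gives 5 of 6 beside 33.7% of all genes.

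The libraries of block 1 also stood apart in other measures. The mean log2 CPM of 646 genes of the study's muscle cluster (the muscle mean, members left out) was 6.24 ± 0.33 in block 1 (5.72 to 6.63) and 5.84 ± 0.37, 5.84 ± 0.34 and 5.77 ± 0.29 in blocks 2 to 4 (5.02 to 6.41 over these). The median of assigned reads was 6812020 in block 1 and 8215480, 8694507 and 8588580 in the others. With the muscle mean added to the block test, none of the 6 genes passed in limma (adjusted *p* = 0.139 for *HEG1*, 0.225 for *RPRD2* and 0.321 for *WBP2*), while 6.76% of all genes did. With the log2 of assigned reads added instead, *HEG1* and *RPRD2* passed in limma and *WBP2* did not (adjusted *p* = 0.0699), beside 17.5% of all genes. In full-thickness samples fewer cells of a type and less RNA per cell cannot be told apart. The part of muscle content and of depth in the block differences was not tested beyond these fits.

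The genes were chosen on CH4 yield and not on the muscle mean. All 6 are, however, in the study's list for retention time, which was made with the mean of muscle genes in the model. Of the 230 other measured genes of that list, 187 rose with the muscle mean and 10 fell. The share of all genes is thus not a matched baseline for the 6. Against the muscle mean, over all 62 sheep, 5 of 6 genes passed beside 54.9% of all genes, of which 25.9% rose and 29% fell with it. *HEG1*, itself a gene of the muscle cluster in the study's network, rose by 1.01 log2 CPM per unit of the muscle mean (SE 0.14, limma adjusted *p* = 7.14e-09; *r* = 0.669, rho = 0.608). The study built that cluster from correlations between genes in data that include these sheep. A rise of *HEG1* was therefore largely set by its place in the cluster, of whose 646 other genes 645 rose, and its values are a description. *RPRD2*, which is not in that cluster, had the same slope within error (1.03, SE 0.16, adjusted *p* = 5.22e-08; *r* = 0.638, rho = 0.594). The genes closest to it, *ASH1L* and *WASF2* (*r* = 0.928 and 0.913 with block means removed), are in the cluster. *RPRD2* and *WBP2* are also among the genes of the list that the study prioritized, of which all 38 others rose with the muscle mean. A rise of these 2 genes was thus close to fixed as well, and their values are a description. *WBP2* rose by 0.70 (SE 0.15, adjusted *p* = 7.52e-05; *r* = 0.502, rho = 0.405) and *UBAP2* by 0.23 (SE 0.09, adjusted *p* = 0.0171; *r* = 0.327, rho = 0.309). With block held constant the slope of *UBAP2* was 0.11 (SE 0.10) and did not pass in limma (adjusted *p* = 0.371), while *HEG1*, *RPRD2*, *WBP2* and *NUP93* still passed. *NUP93* fell by 0.44 (SE 0.08, adjusted *p* = 1.07e-06; *r* = -0.597, rho = -0.518). *MAPRE3* had a slope of 0.29 (SE 0.18), which did not pass (adjusted *p* = 0.174; *r* = 0.197, rho = 0.175).

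Permutation (2-sided) tests of *r* and rho for the muscle mean, from 12 relations computed with it and with live weight, gave *p* = 1e-05 for *r* of *HEG1*, *RPRD2* and *NUP93*, the smallest that 100000 permutations can give. They gave *p* = 3e-05 for *WBP2*, 0.00964 for *UBAP2* and 0.124 for *MAPRE3*. Nothing is read from the *p* of *HEG1*, a gene of the cluster behind the muscle mean, nor from those of *RPRD2* and *WBP2*, for the reasons given above. For rho the permutation *p* was 1e-05 for *HEG1* and *RPRD2*, 2e-05 for *NUP93*, 0.0013 for *WBP2*, 0.0146 for *UBAP2* and 0.174 for *MAPRE3*. Leaving out 2 sheep, those whose muscle mean lay farthest from its median, gave *r* of 0.609 for *HEG1*, 0.639 for *RPRD2*, -0.610 for *NUP93*, 0.452 for *WBP2*, 0.322 for *UBAP2* and 0.161 for *MAPRE3*.

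Within blocks, *HEG1* followed the muscle mean in all 4 (*r* = 0.510, 0.521, 0.633 and 0.449), and so did *RPRD2* (0.736, 0.358, 0.484 and 0.424). *NUP93* ran against it in all 4 (-0.788, -0.457, -0.258 and -0.315). *WBP2* had *r* of 0.666 in block 1 and 0.196, 0.143 and 0.373 in the others. For *UBAP2*, *r* was 0.511 in block 1 and between -0.02 and 0.07 in blocks 2 to 4, and for *MAPRE3* it was 0.230, 0.04, 0.08 and -0.297. Without block 1, *HEG1* (slope 0.74, SE 0.17), *RPRD2* (0.65, SE 0.20) and *NUP93* (-0.24, SE 0.09) still passed over 46 sheep, beside 38.3% of all genes, and *UBAP2* (0.03, SE 0.11) and *WBP2* (0.35, SE 0.20) did not.

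**Figure D4:**
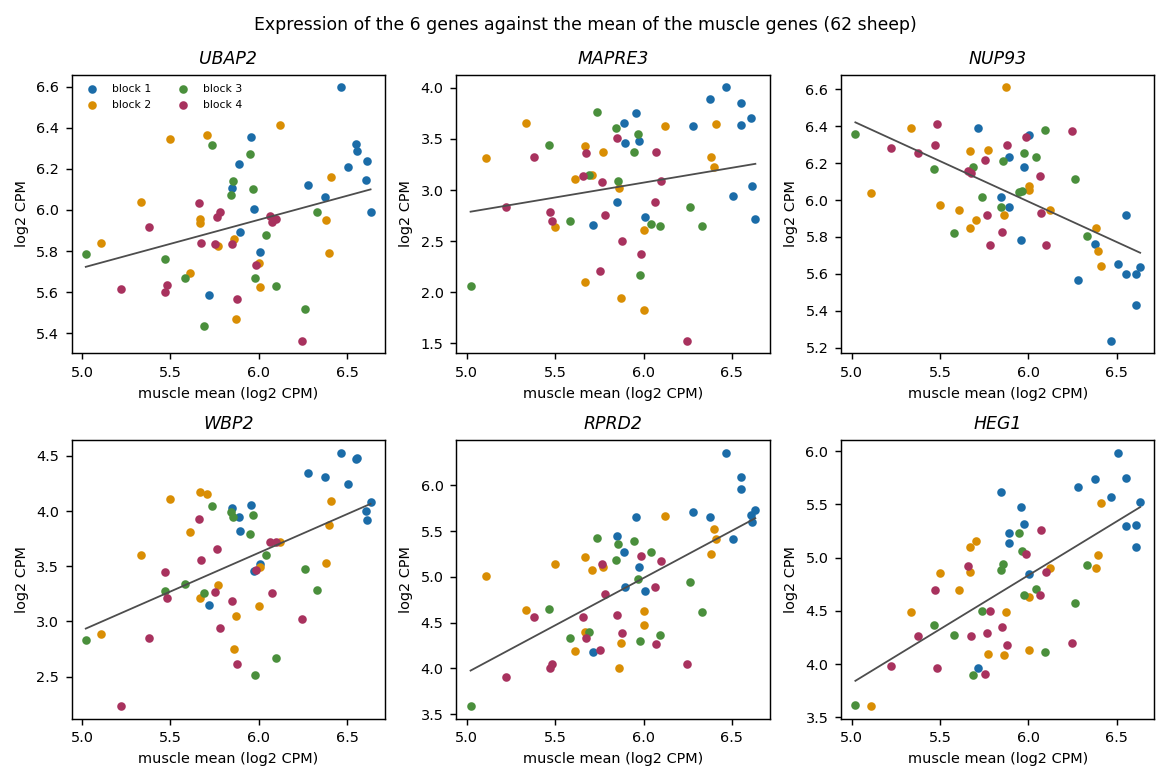
Log2 CPM of each gene (y axis) against the muscle mean in log2 CPM (x axis) in 62 sheep, 1 point per sheep, colored by test block, with the line fitted over all sheep. *HEG1* and *RPRD2* rise with slopes near 1, *NUP93* falls, and *MAPRE3* scatters around a slope that did not pass the test.

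CH4 yield and the muscle mean were only weakly related in these sheep (*r* = -0.169, *n* = 61), as were CH4 yield and the log2 of assigned reads (*r* = 0.0992). With the muscle mean held constant, the slopes on CH4 yield were 94.9% (*MAPRE3*), 90.2% (*UBAP2*), 81.7% (*WBP2*), 79.1% (*NUP93*), 73.2% (*RPRD2*) and 71.7% (*HEG1*) of those without it. The order is that of their *r* with the muscle mean, from the weakest to the strongest, and none changed sign. The members also moved with depth, with *r* against the log2 of assigned reads of -0.385 for *UBAP2*, -0.344 for *WBP2*, -0.321 for *MAPRE3*, -0.320 for *RPRD2*, -0.258 for *HEG1* and 0.256 for *NUP93* (*n* = 62). The part of depth and of muscle content in the relation with CH4 yield was not tested beyond these fits.

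Live weight, which does not enter CH4 yield (*r* = 0.03 between the pair), gave no call for any of the 6 genes. Feed was given at a multiple of maintenance requirement, so live weight and DMI, the divisor of CH4 yield, need not be independent. Over all genes limma called 3 (0.0187%), and at an unadjusted *p* under 0.05 it had 8.23% of all genes and none of the 6. The slope per kg was between -0.00596 (*NUP93*, 95% interval -0.0143 to 0.00237) and 0.00821 (*MAPRE3*, -0.00856 to 0.0250), and limma adjusted *p* was 0.778 to 0.999. *r* was between -0.179 (*NUP93*, permutation *p* = 0.165) and 0.123 (*MAPRE3*, permutation *p* = 0.342), and rho between -0.102 (*NUP93*, permutation *p* = 0.430) and 0.0825 (*MAPRE3*, permutation *p* = 0.524). Leaving out 2 sheep, those whose live weight lay farthest from its median, gave *r* of -0.103 for *NUP93* and 0.0686 for *MAPRE3*. Within blocks *NUP93* had negative *r* and *MAPRE3* positive *r* in all 4, and the highest of any member was 0.535, for *UBAP2* in block 3 (*n* = 14).

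The 6 genes varied together from sheep to sheep. Among *UBAP2*, *MAPRE3*, *WBP2*, *RPRD2* and *HEG1*, the 10 pairs had *r* of 0.443 to 0.804 over 62 sheep (median 0.696), the highest for *WBP2* with *RPRD2* and the lowest for *MAPRE3* with *HEG1*. The 5 pairs with *NUP93* had *r* of -0.638 to -0.456 (median -0.606). Part of this likeness is fixed by the choice of genes on 1 trait, and all pairs share the same libraries, their depth and the block differences. With the block means removed, the 10 pairs had *r* of 0.298 to 0.712 (median 0.599) and the 5 pairs with *NUP93* -0.533 to -0.358 (median -0.480). With block, muscle mean and log2 reads all removed, these were 0.328 to 0.699 (median 0.582) and -0.506 to -0.284 (median -0.346). The sign of every pair was the same in each of the 4 blocks, with *r* from 0.143 to 0.912 among the 10 pairs.

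**Figure D5:**
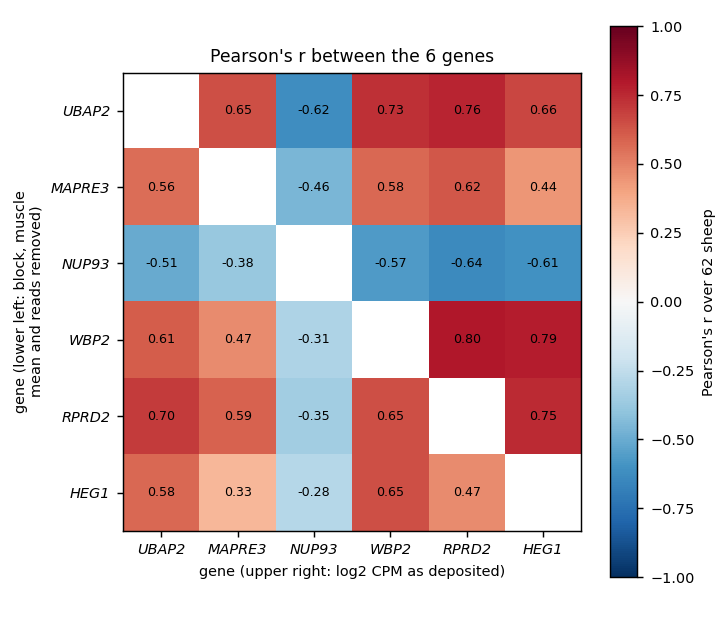
Pearson's *r* between each pair of the 6 genes over 62 sheep (color scale from -1 to 1), from log2 CPM as deposited in the upper right and with block, muscle mean and log2 reads removed in the lower left. Pairs with *NUP93* are negative and the other pairs positive on both sides, and *WBP2* with *RPRD2* has the highest value in the upper right.

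Such values are common for some members and rare for others. With block means removed, 9.72% of the other 16010 genes had an absolute *r* over 0.5 with *RPRD2*, 6.1% with *HEG1*, 4.93% with *WBP2*, 4.06% with *UBAP2*, 3.56% with *NUP93* and 1.11% with *MAPRE3*. The genes with a symbol most like each member were found by the largest absolute *r* with block means removed. *RPRD2* lay closest to *ASH1L*, a histone methyltransferase (*r* = 0.928), and *WASF2*, of the actin-regulating WAVE complex (0.913). *UBAP2* lay closest to the chromatin genes *BAZ2A* (0.847) and *SETD5* (0.826) and to the transcription factor gene *MEF2D* (0.801). *WBP2* lay closest to *MDC1*, of the DNA damage checkpoint (0.815), *NCSTN*, a subunit of gamma-secretase (0.806), and *CAMTA2*, a calmodulin-binding transcription activator (0.798).

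*HEG1* lay closest to the guanine nucleotide exchange factor gene *PLEKHG2* (0.807), the kinase gene *SIK3* (0.791) and *SKI*, a corepressor of TGF-beta signaling (0.787). *MAPRE3* had lower values, with the extracellular matrix gene *ECM1* (0.716), *CAMTA2* (0.650) and the nuclear receptor gene *PPARD* (0.631). Of all genes with an absolute *r* over 0.5 with *NUP93*, 301 had a positive *r* and 269 a negative one. Among genes with a symbol only, its largest values were negative, with the GTPase-activating protein gene *ARHGAP21* (-0.692), *SIK3* (-0.651) and *RAB5B* of early endosomes (-0.649). These 3 ranked 2nd, 8th and 9th among all genes. *CAMTA2* and *SIK3* thus each stood near 2 members. Of these 18 places, 17 were held by genes of the study's list for mean retention time (MRT), the time feed stays in the rumen, beside 17.3% of all genes with a symbol. The members are in that list too, so this count is a description and not a result about them.

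The MRT list holds all 6 members. The study made it from these sheep by comparing animals with short and long MRT, with block and muscle genes in the model, so it is not independent evidence of any direction here. Its 230 other measured genes had negative slopes on CH4 yield in 211 cases (median *r* = -0.286), beside 7566 of 16005 genes in all (median *r* = 0.0109), and 165 of the 230 (71.7%) differed between blocks with CH4 yield held constant, beside 23.5% of all genes. Of the list, 41 genes were prioritized by the study, among them *WBP2*, *RPRD2* and *HEG1*.

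Known partners of the 6 gene products were looked up in lists of 118 entries, of which 26 genes other than the members could be matched, all through symbols that the study's own tables give. Those tables hold genes the study selected from these libraries, so the counts below are descriptions of a selected set. Between blocks with CH4 yield held constant, 19 of the 26 differed (73.1%, beside 23.5% of all genes), and all 26 rose with the muscle mean (25.9% of all genes). None was called on CH4 yield, where 25 of 26 slopes were negative.

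For *UBAP2*, 8 of 17 entries were measured, all RNA-binding or stress granule proteins, all with negative slopes on CH4 yield and 7 of them differing between blocks. Its relative *UBAP2L* had a mean of 6.64 log2 CPM in block 1 and 6.14 in blocks 2 to 4 (limma adjusted *p* = 0.000179) and a slope of -0.0320 on CH4 yield (SE 0.0131), close to that of *UBAP2*. *PABPC1*, which encodes the main cytoplasmic poly(A)-binding protein, had 7.96 against 6.97 (adjusted *p* = 1.77e-08), and *PRRC2C* 8.66 against 8.04 (adjusted *p* = 1.53e-05). *PRRC2A* (7.56 and 6.78, adjusted *p* = 0.000141) and *FAM120A* (7.30 and 6.87, adjusted *p* = 0.00223) also differed between blocks, with the higher mean in block 1. *G3BP2*, a core protein of stress granules, was the 1 that did not pass, with 6.57 and 6.48 (adjusted *p* = 0.218).

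For *MAPRE3*, 9 of 20 entries were measured, of which 6 differed between blocks and 8 had negative slopes on CH4 yield. Its family member *MAPRE2* had 6.24 log2 CPM in block 1 and 5.56 in blocks 2 to 4 (limma adjusted *p* = 0.0417), and its slope on CH4 yield of -0.0713 (SE 0.0239) was near that of *MAPRE3*. With the muscle mean *MAPRE2* rose by 1.35 (SE 0.15), a value whose difference from that of *MAPRE3* was not tested. The microtubule-associated genes *MAP4* and *MAP1B* rose with it by 1.01 (SE 0.07) and 1.95 (SE 0.13), and *DYNC1LI2*, a light intermediate chain of dynein, by 0.51 (SE 0.05). The spectraplakin gene *MACF1*, which links actin and microtubules, did not pass between blocks (11.5 and 11.3, adjusted *p* = 0.0641).

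For *WBP2*, 6 of 22 entries of the Hippo pathway were measured and 4 differed between blocks. The transcription factor genes *TEAD1* (5.74 log2 CPM in block 1 and 5.34 in blocks 2 to 4, limma adjusted *p* = 0.00473) and *TEAD3* (5.05 and 4.68, adjusted *p* = 0.00878) were among them, with the kinase gene *LATS1* (6.07 and 5.76, adjusted *p* = 0.00188) and the angiomotin family gene *AMOTL1* (6.82 and 6.40, adjusted *p* = 8.54e-05). *WWTR1*, which encodes TAZ, a binding partner of WBP2, had 6.86 and 6.75 (adjusted *p* = 0.494), and *LATS2* 5.34 and 5.25 (adjusted *p* = 0.659). The slopes of the 6 on CH4 yield were -0.0232 to -0.00676, all flatter than that of *WBP2*.

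Of the other lists 1 gene each was measured. The nuclear pore gene *NUP214* ran opposite to *NUP93*: it had 6.12 log2 CPM in block 1 and 5.35 in blocks 2 to 4 (limma adjusted *p* = 9.13e-05), a slope of -0.0571 on CH4 yield (SE 0.0196) and a rise of 0.90 with the muscle mean (SE 0.14). *SCAF1*, which like *RPRD2* encodes a protein that binds the C-terminal domain of RNA polymerase II, had 4.85 and 4.40 (adjusted *p* = 0.00596) and a slope of -0.0312 on CH4 yield (SE 0.0144). *RAP1A*, a small GTPase acting with HEG1 and KRIT1, did not pass between blocks (adjusted *p* = 0.123) and had a slope of -0.0137 on CH4 yield (SE 0.0188).

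Marker genes of the muscle, epithelium and fibroblasts were read beside the 6 genes. All 11 measured smooth muscle markers had a negative *r* with CH4 yield (median -0.110), and 0 of 11 differed between blocks in limma with CH4 yield held constant, beside 23.5% of all genes and 298 of the 646 genes of the muscle cluster (46.1%). The mean of each of the 11 was nevertheless higher in block 1 than in blocks 2 to 4, as in *SMTN* (9.05 and 8.57 log2 CPM). The smallest adjusted *p* of the 11 in limma was 0.0760, for *CNN1*, which encodes calponin (11.1 and 10.4 log2 CPM). *MYH11*, which encodes smooth muscle myosin, was among the 11 (13.9 log2 CPM in block 1 and 13.4 in blocks 2 to 4, adjusted *p* = 0.241). Of 3 epithelial markers, *KRT78* (10.1 and 11.8, adjusted *p* = 7.13e-05) and *TGM1* (9.47 and 10.1, adjusted *p* = 0.00321) differed between blocks, with the lower mean in block 1. *KRT13* had 10.7 and 10.4 (adjusted *p* = 0.234). Of 4 fibroblast markers, *FN1* (10.5 and 9.51, adjusted *p* = 0.00161) and *COL1A1* (8.68 and 8.02, adjusted *p* = 0.0109) differed between blocks, with the higher mean in block 1. *COL3A1* (10.4 and 10.3, adjusted *p* = 0.946) and *COL1A2* (9.30 and 9.22, adjusted *p* = 0.904) did not pass. Their part in the block differences of the 6 genes was not tested.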

How the data were processed

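The authors aligned reads of stranded, ribosomal RNA depleted libraries with TopHat (Bowtie2) against sheep gene models from Ensembl and counted unique alignments with HTSeq; edgeR and limma also appear in the submitters' notes. Log2 CPM made with voom were deposited for 62 libraries and 16011 genes, of which 14 are added gene models. Whole reads were recovered in 100% of values (tolerance 0.01 reads, offset 0.5), and voom weights from these reads served as an alternative. No pair of libraries held identical values.

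All 16011 genes were fitted on the deposited log2 values with limma (version 3.58.1, R 4.3.3; moderated variances that follow mean expression), with Benjamini-Hochberg adjustment over all genes and a threshold of 0.05. The fits were tested on simulated data. Permutation tests used 100000 permutations. Figures were drawn with matplotlib 3.10.9.

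The 6 genes, the gene lists and the tests were chosen with earlier results of these data known. Genes named beside the 6 are, by rule, the 3 genes with a symbol of the largest absolute *r* with each (block means removed), fixed lists of partners, named from the largest mean level down, and fixed cell markers. A gene that this rule would name is not reported here. The relatives and exceptions named outside that order were picked after their values were seen. Symbols come from the study's tables (1224 genes). Sequences and coordinates were not used here, nor were MRT and fatty acid values. The fits were repeated with other sheep, covariates, normalizations, filters and variance models. Those using assigned reads, low-depth libraries or voom weights were added after the data were seen.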

Additional observations from a re-analysis of the deposited data

How the results depend on the processing

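None of the 6 genes passed the adjusted threshold on CH4 yield, live weight or the interaction under any alternative run. Over all genes, limma called 18 on CH4 yield without sheep oz175, 2 with sheep oz151 and 1 with log2 reads as a covariate, against 0. With sheep oz151 the 6 slopes shrank to between -0.00201 and 0.00107, and that of *RPRD2* turned to 0.000709 (SE 0.00213); that sheep's value of 301 g/kg DMI then sets the range. On live weight, the 3 genes called of all became 0 with DMI, with block or with voom weights, 1 without the 2 sheep farthest from the median, 1 among genes at 3 CPM or more, and 78 with the muscle mean. Slopes on live weight that changed sign were all within their SE of 0: *RPRD2* (0.000639 with CH4 yield, 0.00454 with block, 0.000195 with quantile normalization, 0.000822 with voom weights), and *UBAP2*, *WBP2* and *HEG1* (-0.00253, -0.00740 and -0.00552 with DMI; -0.00227, -0.00356 and -0.00359 without the 2 farthest sheep). Between blocks, 3 of the 6 became 5 with no CH4 yield in the fit, 5 for block 1 against the rest and 0 with the muscle mean, where all genes called went from 3767 to 1083. With plain library totals *UBAP2* also passed (adjusted *p* = 0.0446). On the muscle mean, 5 of 6 became 3 without block 1, where *MAPRE3* turned to -0.0500, and 4 with 11 textbook smooth muscle genes, where *MAPRE3* turned to -0.002815 and *UBAP2* did not pass; with block as a covariate *UBAP2* did not pass either (adjusted *p* = 0.371). Plain library totals moved the share of rising genes among those called on the muscle mean from 47.2% to 57.6%. The cause of these changes was not tested. No paired analysis was possible because the sheep carry only names and no number that ties animals of different blocks. *MAPRE3* is left out under the 3 CPM filter, and its low counts limit its precision most.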
